A study of Mus musculus with 10 samples.

Results

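The nuclear genes of the respiratory chain complexes were described at the level of chromatin in mouse skeletal muscle. A gene was taken when it had a RefSeq NM_ transcript on GRCm38 and a symbol starting with Ndufa, Ndufb, Ndufc, Ndufs, Ndufv, Sdha to Sdhd, Uqcr, Cox4i, Cox5, Cox6, Cox7, Cox8 or Atp5. This gave 99 of 21000 NM_ genes. They comprised 39 genes of complex I, 4 of complex II, 8 of complex III, 17 of complex IV, 17 of complex V and 14 others, namely the Ndufaf and Sdhaf assembly factors, Cox7a2l and Ndufa4l2. The sorting followed the symbols, so that Ndufa4 was counted with complex I and Cyc1, which lies in complex III, was outside the rule.

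The study addressed where the glucocorticoid receptor (GR) and the lysine-specific demethylase LSD1 sit on muscle chromatin, and where mono- and dimethylated lysine 9 of histone H3 (H3K9me1 and H3K9me2) lie, in fed mice and in mice starved for 24 h. All libraries came from skeletal muscle of C57BL/6J mice, labelled as 10 weeks old, without any genetic change named in the labels. Each of the 4 targets was sequenced in 1 library per condition, and 8 peak lists were analysed here, while 2 input libraries entered only through the peak calling. With 1 library per target and condition no difference between fed and starved muscle could be tested, and the counts below describe these libraries. The libraries carried 2 library codes: both GR libraries shared a code, both LSD1 libraries shared the other, and for H3K9me1 and H3K9me2 the code changed with the condition, so that starvation and code cannot be told apart for the histone marks. Both input libraries carried the code of the GR libraries. A difference between GR and LSD1 therefore cannot be told apart from the code either. Whole muscle was used, which holds blood vessels, blood and fat cells besides myofibers.

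The lists held between 6624 peaks (H3K9me2, starved) and 171402 peaks (H3K9me2, fed), and all went up to q-values of nearly 0.1. The median peak length ranged from 49.0 bp to 313 bp. All 8 skeletal muscle marker genes examined (such as Acta1 and Ckm) had a GR and an LSD1 peak within 30 kb in both conditions, and 3 (GR, fed) or 4 (the other lists) of them had a promoter peak. Of 10 marker genes of liver, blood, fat and endothelium, none had a GR promoter peak and 1 (Pecam1) had an LSD1 promoter peak, in starved muscle. Within 30 kb, between 4 and 9 of these 10 had a peak in each list.

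The respiratory chain passes electrons from NADH (complex I) and succinate (complex II) through complex III to oxygen at complex IV, and the proton gradient built on the way drives ATP synthesis at complex V. Most subunits are encoded in the nucleus, and their promoters are known for binding sites of nuclear respiratory factor 1 (NRF1), of the ETS factor GABPA, of YY1 and of estrogen-related receptors, which act with the PGC-1 coactivators. GR is a hormone-dependent receptor that binds palindromic response elements (GREs), often far from start sites, and LSD1 removes methyl groups from lysine 4 or lysine 9 of histone H3. Slow oxidative fibers are rich in these complexes, and several complex IV subunits have an isoform made mainly in heart and skeletal muscle.

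Promoter sequences from RefSeq (GRCm38.p6, 250 bases before to 50 bases after a start site) were matched for 81 of the 99 genes. The stretches below run from 170 bases before a start site to 20 bases from it, in the direction of the gene. They show the kinds of promoter met among the genes: Sdhb and Ndufs5 had a peak in all 4 GR and LSD1 lists, Atp5j shared peaks with the gene of an ETS factor, Sdhd had a single weak promoter peak, Cox6a1 had no promoter peak, and Cox8b is a muscle isoform. Capitals mark matches to the NRF1 core (GCGCNTGCG), the ETS site of GABPA (CCGGAAG) or YY1 (AAGATGGCG), on either strand. Atp5j has 5 start sites, and its stretch was picked because it holds such matches. The other matched start site of Atp5j had none of them and is not shown. The strongest Atp5j promoter peaks of GR and LSD1 in fed muscle were centred at -525 and -512 bp from that other site (negative is upstream).
Sdhb, chr4:140961101-140961290, plus strand: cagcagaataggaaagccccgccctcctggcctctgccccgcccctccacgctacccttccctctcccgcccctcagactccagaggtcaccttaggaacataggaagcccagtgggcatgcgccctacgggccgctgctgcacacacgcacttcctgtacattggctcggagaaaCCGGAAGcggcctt
Ndufs5, chr4:123718167-123718356, minus strand: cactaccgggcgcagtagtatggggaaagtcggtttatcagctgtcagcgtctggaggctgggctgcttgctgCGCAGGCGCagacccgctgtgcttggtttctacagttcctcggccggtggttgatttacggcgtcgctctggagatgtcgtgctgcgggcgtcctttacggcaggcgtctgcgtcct
Sdhd, chr9:50603830-50604019, minus strand: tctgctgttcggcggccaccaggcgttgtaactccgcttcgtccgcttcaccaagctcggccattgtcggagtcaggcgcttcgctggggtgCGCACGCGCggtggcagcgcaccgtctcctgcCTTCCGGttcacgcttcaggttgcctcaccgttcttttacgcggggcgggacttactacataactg
Atp5j, chr16:84834957-84835146, minus strand: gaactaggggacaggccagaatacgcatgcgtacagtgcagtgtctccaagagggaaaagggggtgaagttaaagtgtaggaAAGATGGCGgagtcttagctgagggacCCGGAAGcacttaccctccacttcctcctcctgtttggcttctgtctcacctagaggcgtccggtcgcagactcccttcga
Cox6a1, chr5:115348939-115349128, minus strand: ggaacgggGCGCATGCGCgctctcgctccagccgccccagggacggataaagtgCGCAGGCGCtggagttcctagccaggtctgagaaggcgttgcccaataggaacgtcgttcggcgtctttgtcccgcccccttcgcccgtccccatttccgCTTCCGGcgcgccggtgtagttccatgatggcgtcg
Cox8b, chr7:140900427-140900616, minus strand: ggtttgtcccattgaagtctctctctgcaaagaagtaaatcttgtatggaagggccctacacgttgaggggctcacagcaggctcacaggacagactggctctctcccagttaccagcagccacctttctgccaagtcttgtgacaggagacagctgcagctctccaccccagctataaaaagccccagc
Cox6a1 carried 3 matches to the NRF1 core, the first 2 of which overlap as opposite strands of the same palindrome, and a GABPA match 16 bases before the start site. It had no promoter peak of GR or LSD1, although peaks of both lay within 30 kb in each condition. In contrast, the stretch of Cox8b carried no match to any of the 6 motifs searched and had peaks of GR in starved and of LSD1 in fed muscle. The Sdhd promoter also held a match to the estrogen-related receptor site (TCAAGGTCA), 36 bases after the start site and outside the printed stretch.

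A promoter peak was counted when the midpoint of a peak lay between 1 kb upstream and 100 bp downstream of any of a gene's start sites. GR peaks lay at the promoter of 30 of the 99 genes in fed muscle, or 30.3% (95% exact Clopper-Pearson interval 21.5 to 40.4), against 15.1% of all NM_ genes. In starved muscle the number was 43 (43.4%, 33.5 to 53.8), against 26.0%. LSD1 peaks lay at 50 promoters in fed muscle (50.5%, 40.3 to 60.7), against 25.4%, and at 31 in starved muscle (31.3%, 22.4 to 41.4), against 18.0%. In each of these 4 lists the share was between 1.67 and 2.01 times that of all genes, with the background below the interval. The intervals cover counting error only, and the genes are not replicates of a condition.

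Similar shares were found at other genes needed in most cells. Of 78 mitochondrial ribosomal protein genes, 28.2% had a GR promoter peak in fed and 44.9% in starved muscle, and 44.9% had an LSD1 peak in fed and 28.2% in starved muscle. The corresponding shares of 90 cytosolic ribosomal protein genes were 24.4%, 44.4%, 56.7% and 34.4%. Each of these values lay within the interval of the respiratory chain genes. Of 1107 olfactory receptor genes, which are silent in muscle, 0.0903%, 0.271%, 0% and 1.36% had such a peak. The shares of the respiratory chain genes were thus not set apart from those of the ribosomal protein genes.

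**Figure D1:**
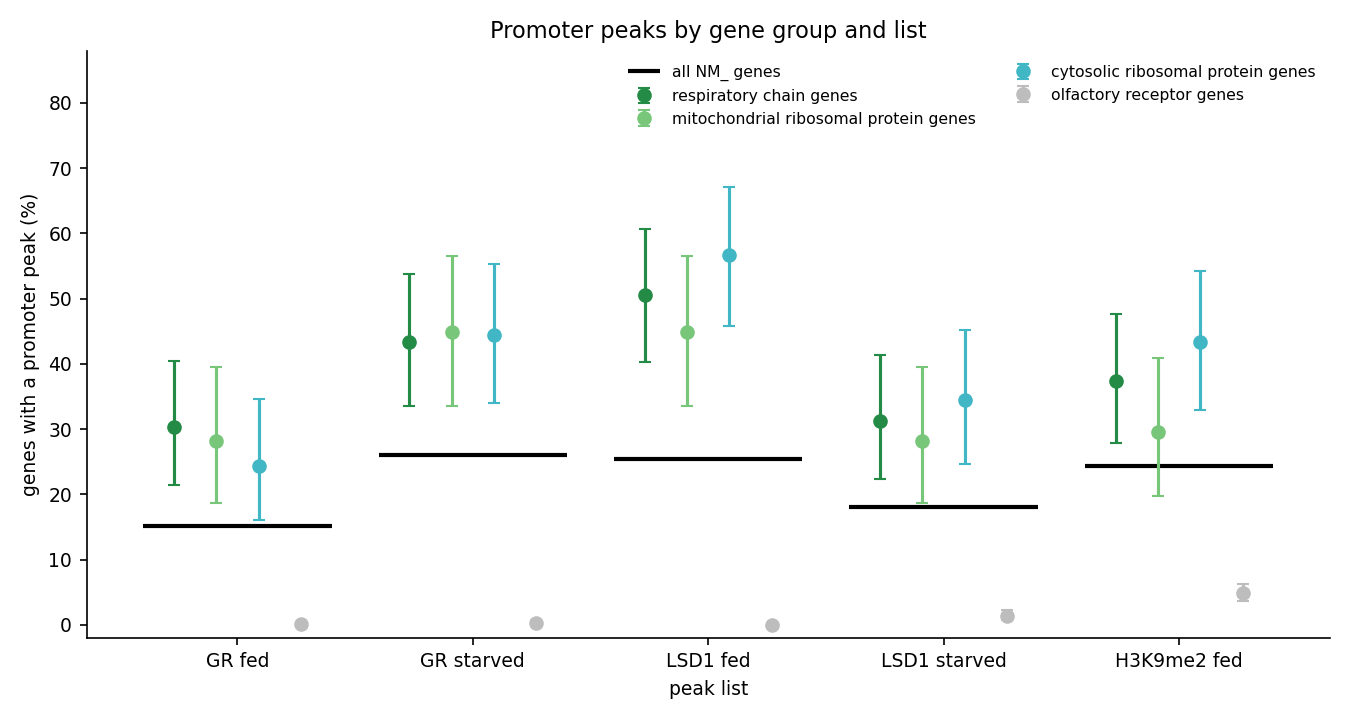
Share of genes with a promoter peak (%, y axis) in 5 peak lists (x axis) for the 99 respiratory chain genes, 78 mitochondrial and 90 cytosolic ribosomal protein genes and 1107 olfactory receptor genes, with 95% exact intervals as bars and the share of all 21000 NM_ genes as a black line. The respiratory chain genes sit above the line in each list, for example at 50.5% against 25.4% in LSD1 fed, and next to the ribosomal protein genes.

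The promoter peaks were weak. Fold enrichment over input, as the peak caller gives it, had a median of 2.99 over the 30 GR peaks in fed muscle, with a range from 2.65 to 4.97, while the median over the promoter peaks of all genes was 3.04. For GR in starved muscle the median was 2.67 over 44 peaks (2.31 to 4.14; all genes 2.72). For LSD1 it was 3.94 over 53 peaks in fed muscle (3.45 to 5.00; all genes 3.98) and 3.35 over 31 peaks in starved muscle (2.94 to 5.06; all genes 3.45). The medians were thus slightly below those of all genes in each of these lists. No GR peak and no LSD1 fed peak at these promoters reached a fold of 5. Among the promoter peaks of all genes, 52 of 2976 did so in GR fed, 26 of 5226 in GR starved and 170 of 5263 in LSD1 fed. Such peaks were thus rare over all genes too, and their absence among 30, 44 and 53 peaks does not set these genes apart.

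At a q-value of 0.01 or less, 15 genes kept a GR promoter peak in fed muscle (15.2%, against 9.03% of all genes) and 21 in starved muscle (21.2%, against 12.7%). LSD1 peaks of this quality remained at 15 promoters in fed muscle (15.2%, 8.74 to 23.8, against 11.8%) and at 4 in starved muscle (4.04%, 1.11 to 10.0, against 3.39%). The share of all genes now lay within the interval for both LSD1 lists, and for GR it lay below the interval in starved muscle (13.6 to 30.6) and inside it in fed muscle (8.74 to 23.8). Of the LSD1 promoter peaks of these genes, 28.3% in fed and 12.9% in starved muscle had a q-value of 0.01 or less, against 44.3% and 17.6% of those of all genes.

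**Figure D2:**
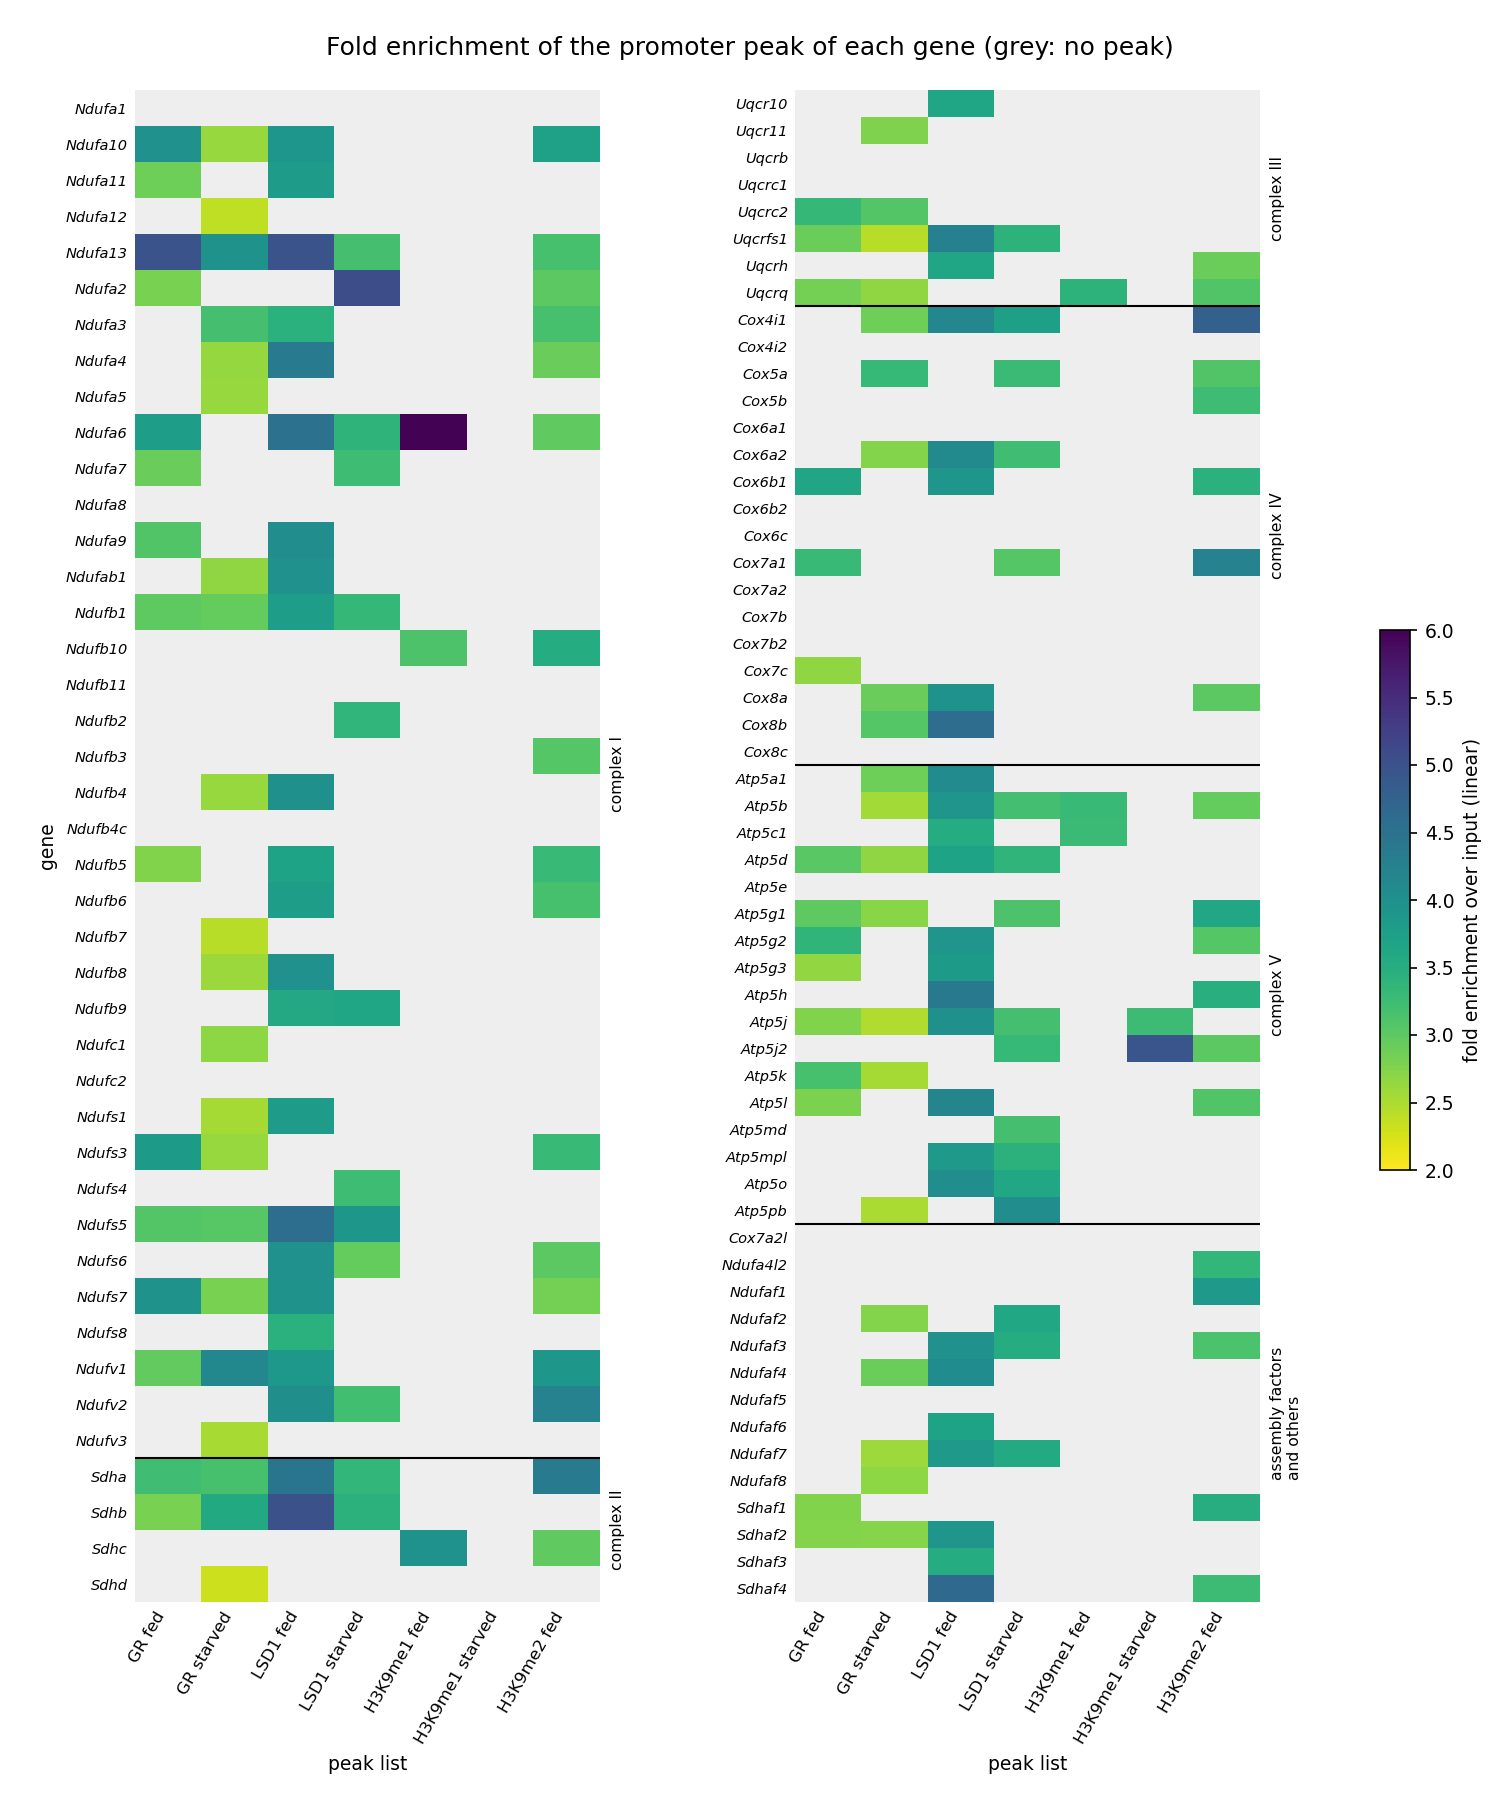
Fold enrichment over input (linear colour scale from 2 to 6) of the strongest promoter peak of each gene shown (rows, by complex) in 7 peak lists (columns), with grey for no peak. H3K9me2 starved is left out because none of the genes had a promoter peak in it; the highest cells are Ndufa6 in H3K9me1 fed (5.98), Ndufa2 in LSD1 starved (5.06) and Sdhb in LSD1 fed (5.00).

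The promoter peaks of these genes often sat close to the start site, as did those of all genes. Of the GR promoter peaks, 70.0% in fed and 54.5% in starved muscle had their midpoint within 100 bp of the start site, against 47.9% and 49.6% of those of all genes. For LSD1 the shares were 60.4% and 67.7%, against 57.0% and 50.8%. The shares in GR starved and LSD1 fed were thus near those of all genes. In LSD1 fed, the 200 bp bin downstream of the start site held 30.3 midpoints per 100 genes and the bin upstream 17.2, whereas over all genes the bins held 10.9 and 12.8. The downstream bin was also the higher in LSD1 starved (19.2 and 14.1). In GR fed (11.1 and 17.2) and GR starved (20.2 and 24.2) the upstream bin was higher, as it was over all genes.

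**Figure D3:**
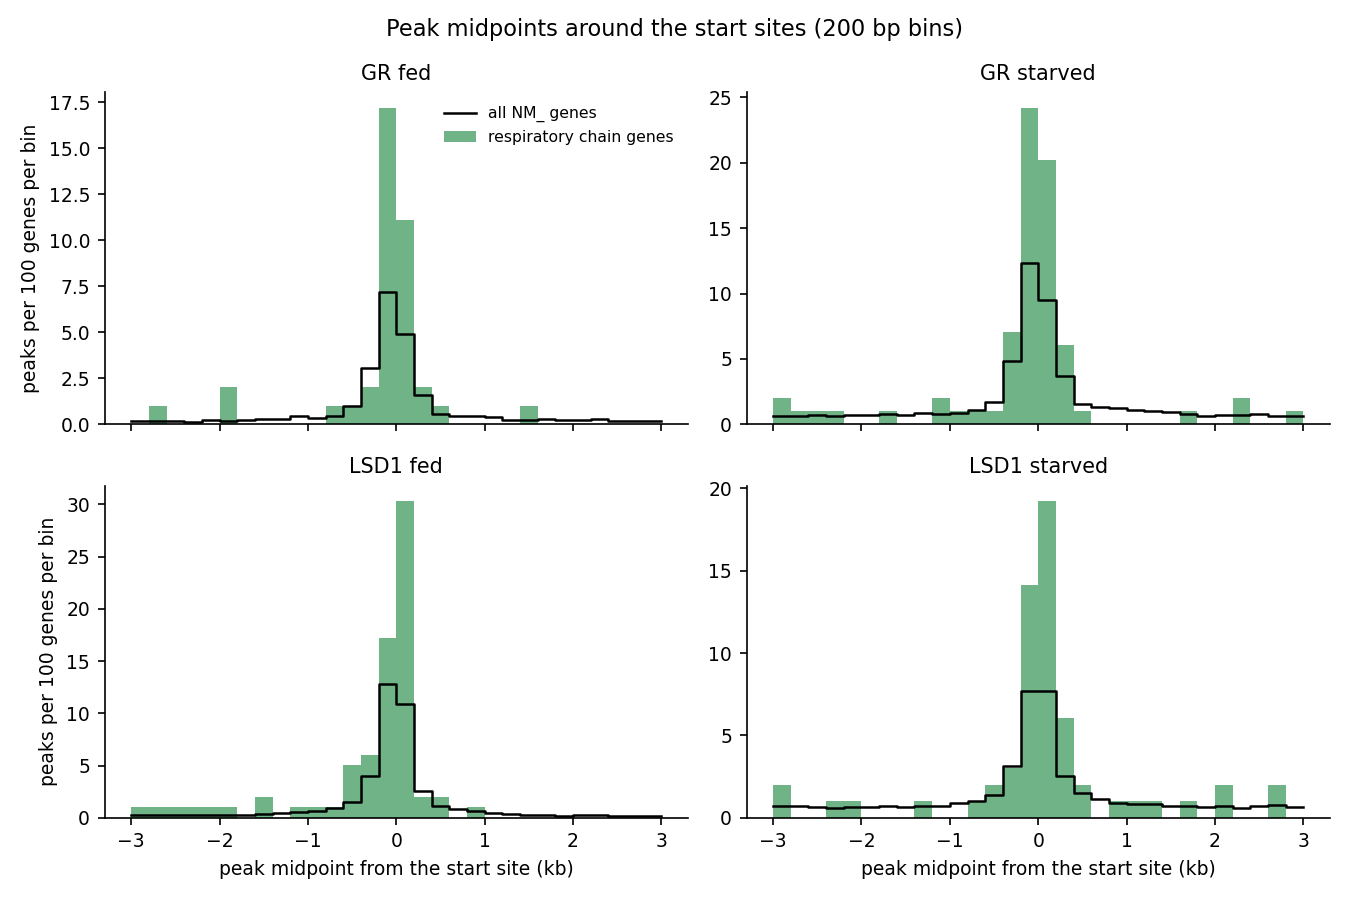
Peak midpoints per 100 genes (y axis) in 200 bp bins around the start site (x axis, kb, negative upstream) for the respiratory chain genes (green bars) and all NM_ genes (black line), in the 4 GR and LSD1 lists. Midpoints crowd within 200 bp of the start site, for example 17.2 and 11.1 per 100 genes on its upstream and downstream side in GR fed, against 7.17 and 4.92 over all genes.

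A peak that crosses the window edge can be missed by the midpoint rule. When any base of a peak in the promoter was enough, a GR peak was counted at 34 genes in fed muscle (34.3%, against 17.9% of all genes) and at 58 in starved muscle (58.6%, against 32.2%). LSD1 was then counted at 55 genes in fed muscle (55.6%, against 28.9%) and at 38 in starved muscle (38.4%, against 20.2%). Each share stayed above that of all genes.

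Counting the 4 GR and LSD1 lists together, 24 genes (24.2%) had a promoter peak in none of them, against 58.3% of all genes. A promoter peak in all 4 was found at 8 genes (8.08%, 3.55 to 15.3). This interval holds the 4.69% of all genes, so these genes are named as a description only. At the stricter q-value limit used above, none of the 8 kept a promoter peak in all 4 lists. The 8 genes were Ndufa13, Ndufb1 and Ndufs5 (accessory subunits of complex I), Sdha and Sdhb (the flavoprotein and the iron-sulfur subunit of complex II), Uqcrfs1 (the Rieske iron-sulfur protein of complex III), and Atp5d and Atp5j (the delta subunit and coupling factor 6 of complex V). The strongest peaks of the 4 lists shared a common stretch at Sdha (242 bp), Ndufa13 (91 bp), Ndufs5 (31 bp) and Uqcrfs1 (8 bp). At the other 4 no stretch was common to the strongest peaks of all 4 lists, although some of them overlapped in pairs, as those of GR and LSD1 did in fed muscle at Atp5d. At Sdhb the weaker of both LSD1 fed peaks overlapped the peaks of the other lists.

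Ndufa13 had the highest mean fold of the 8, with 4.97 for GR in fed, 3.95 for GR in starved, 4.98 for LSD1 in fed and 3.18 for LSD1 in starved muscle. Its q-values were 2.98e-12, 4.35e-08, 0.000199 and 0.0748. The midpoints lay at -718, -511, -513 and -446 bp from the start site, where negative is upstream. The stretch common to the 4 peaks lies in the coding exon of Tssk6, a testis-specific kinase gene read in the opposite direction. It is shown because it belongs to the GR fed peak with the highest fold at any of the 99 promoters. The stretch is an end of that 548 bp peak, the rest of which is not shown, and the lists give no signal per base.
Ndufa13, chr8:69903003-69903093, minus strand: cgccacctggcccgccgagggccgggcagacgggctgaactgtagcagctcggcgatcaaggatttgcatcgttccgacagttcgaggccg
None of the 6 motifs matched within these 91 bases, so the stretch carries no capitals.

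Sdhb had GR folds of 2.81 in fed and 3.57 in starved muscle and LSD1 folds of 5.00 in fed and 3.43 in starved muscle. The LSD1 fed peak of fold 5.00 (just under 5 before rounding) was centred at -873 bp, and another LSD1 fed peak of fold 3.63 was centred 46 bp downstream of the start site. The GABPA match shown above begins at base 6 after that start site. Ndufs5 had GR folds of 3.07 and 3.04 and LSD1 folds of 4.55 and 3.89 in fed and starved muscle. Its q-values were 0.0154 and 0.00408 for GR and 0.00227 and 0.00446 for LSD1, and all 4 midpoints lay within 100 bp of the start site.

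By complex, the share with an LSD1 fed promoter peak was 56.4% for complex I (22 of 39), 2 of 4 genes for complex II, 37.5% for complex III (3 of 8), 29.4% for complex IV (5 of 17) and 64.7% for complex V (11 of 17). GR in fed muscle was listed at 13 of 39, 2 of 4, 3 of 8, 3 of 17 and 7 of 17 genes in the same order, and GR in starved muscle at 19, 3, 4, 5 and 7. Complex IV had the lowest share of the 5 complexes in each of these 3 lists, with values near the 25.4%, 15.1% and 26.0% of all genes, whereas in LSD1 starved complex III was lower (1 of 8, against 4 of 17). Of the 17 complex IV genes, 9 had no promoter peak in any of the 4 lists (52.9%, 27.8 to 77.0), which is near the 58.3% of all genes. Complex V was the reverse, with 1 of 17 genes, Atp5e, in none of the lists (5.88%, 0.149 to 28.7). The intervals of both complexes for LSD1 fed (10.3 to 56.0 and 38.3 to 85.8) overlap.

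**Figure D4:**
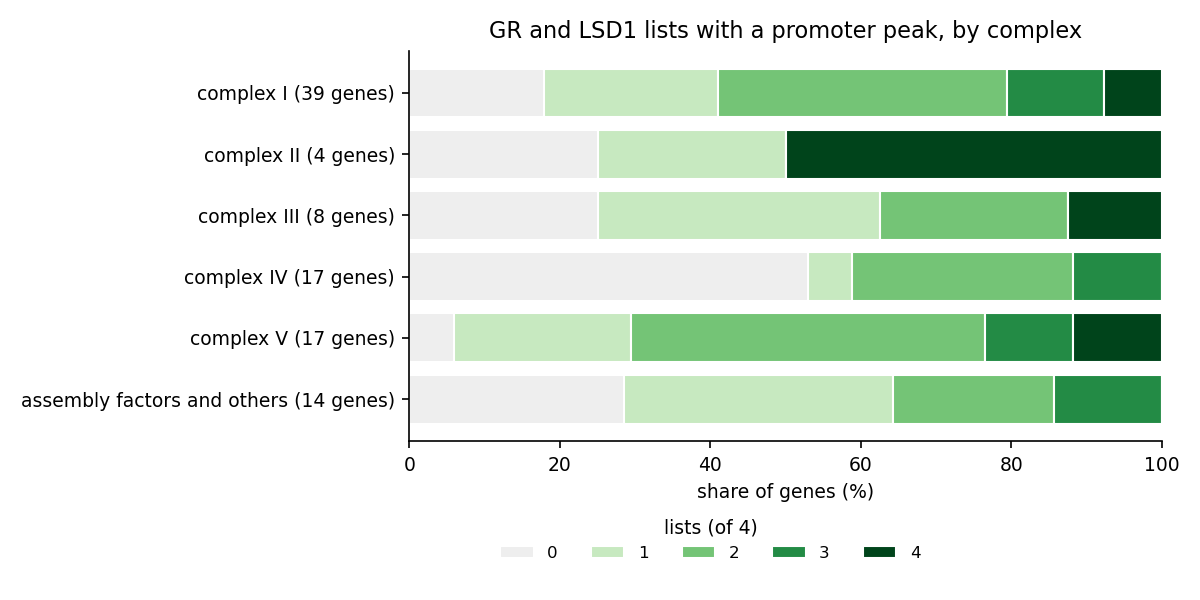
Share of genes (%, x axis) by the number of GR and LSD1 lists, of 4, in which they had a promoter peak (shades of green), for each complex (y axis, with its number of genes). Grey, no list, covers 9 of 17 genes of complex IV and 1 of 17 of complex V.

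Among the core genes of complex I, Ndufv1, which carries the NADH-binding flavin site, had GR folds of 2.96 in fed and 4.14 in starved muscle (q 0.0136 and 1.03e-07) and an LSD1 fold of 3.86 in fed muscle, with no LSD1 peak in starved muscle. The starved GR value is the highest of that list at these promoters. Ndufs1, the largest iron-sulfur subunit, had a GR peak in starved muscle alone (2.54, q 0.0365) and an LSD1 peak in fed muscle alone (3.80, q 0.0306). Ndufa10, an accessory subunit, had the second highest GR fold in fed muscle (3.97), and its fold in the starved list was 2.62.

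In complex II, Sdha had GR folds of 3.22 and 3.16 and LSD1 folds of 4.45 and 3.35 in fed and starved muscle. All of its LSD1 and GR fed peaks also lay in the promoter of Ccdc127, whose start site is 77 bp away on the opposite strand. Sdhc and Sdhd encode the membrane anchors. Sdhc had no GR or LSD1 promoter peak, and Sdhd had only a GR peak in starved muscle (2.31, q 0.0635), the lowest fold among the 44. The catalytic and the anchor genes of the same small complex thus differed in these lists. With so few genes, and with Sdha peaks shared with Ccdc127, this is a description only. No promoter peak in the 4 lists was also the case for 58.3% of all genes.

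In complex III, Uqcrfs1 had GR folds of 2.90 and 2.43 and LSD1 folds of 4.24 and 3.42 in fed and starved muscle, whereas Uqcrc1, a core protein, had no promoter peak in any of the 8 lists. Its partner Uqcrc2 had GR peaks of 3.34 and 3.07 and no LSD1 peak. In complex V, the catalytic genes Atp5a1 (alpha) and Atp5b (beta) had no GR peak in fed muscle, GR folds of 2.88 and 2.56 in starved muscle, and LSD1 folds of 4.07 and 3.91 in fed muscle. The Atp5a1 peaks also lay in the promoter of Haus1. In starved muscle Atp5b kept an LSD1 peak (3.20, q 0.0458), and none was listed for Atp5a1. Atp5pb, subunit b of the stator, had the second highest LSD1 fold in starved muscle (4.04, q 0.00115), at a peak that also lay in the promoter of Wdr77.

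The highest LSD1 fold in starved muscle was at Ndufa2, an accessory subunit of complex I (5.06, q 0.000304). This peak was 49 bp long, the shortest length in the list, was centred at -498 bp, and had no counterpart among the LSD1 fed peaks at the Ndufa2 promoter. It is the only LSD1 starved promoter peak of the 99 genes with a fold of at least 5.

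Among the isoform pairs of complex IV, Cox6a2, Cox7a1 and Cox8b, the isoforms of heart and skeletal muscle, each had promoter peaks, whereas Cox6a1 and Cox7a2, the widely expressed counterparts of Cox6a2 and Cox7a1, had none in any of the 8 lists. Cox6a2 had a GR fold of 2.74 in starved muscle (q 0.0199). Its LSD1 folds were 4.10 in fed and 3.23 in starved muscle (q 0.0126 and 0.0701). At a q-value of 0.01 or less, Cox6a2 thus had no GR or LSD1 promoter peak either. Cox7a1 had a GR fold of 3.31 in fed muscle (q 0.000874) and an LSD1 fold of 3.06 in starved muscle (q 0.0772). Cox8b had a GR fold of 3.05 in starved (q 0.00407) and an LSD1 fold of 4.57 in fed muscle (q 0.00236). Over all genes, 58.3% had no promoter peak in the 4 GR and LSD1 lists, so the contrast is a description only.

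The pair of Cox8a and Cox8b did not differ in this way, since the widely expressed Cox8a had a GR peak in starved (2.92) and an LSD1 peak in fed muscle (3.94), as Cox8b did. Cox8c, Cox6b2 and Cox7b2, which are made mainly in testis, had no promoter peak, and neither did Cox7b. Cox6b1 had a GR fold of 3.63 and an LSD1 fold of 3.90 in fed muscle. Cox4i1, the common isoform of the largest nuclear-encoded subunit, had folds of 2.88 (GR, starved), 4.15 (LSD1, fed) and 3.72 (LSD1, starved), and Cox4i2, known from lung and low oxygen, had none. The Cox4i1 peaks also lay in the promoters of Emc8 and Gm27021. Cox5a had a GR fold of 3.32 and an LSD1 fold of 3.28 in starved muscle, and Cox5b had no GR or LSD1 peak. Ndufa4 had a GR fold of 2.64 in starved and an LSD1 fold of 4.33 in fed muscle, and Ndufa4l2, an isoform known from low oxygen, had neither. The Ndufa4 peaks also lay in the promoter of Phf14.

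Fed and starved muscle were set side by side without a test. GR promoter peaks were present in both conditions at 17 genes (17.2%, 10.3 to 26.1, against 11.0% of all genes, which lies within the interval). In fed muscle alone they were present at 13 (13.1%, against 4.13%) and in starved muscle alone at 26 (26.3%, against 15.0%). For LSD1 the numbers were 20 in both (20.2%, against 10.8%), 30 in fed alone (30.3%, against 14.6%) and 11 in starved alone (11.1%, against 7.17%). The GR starved list was longer than the fed list (37783 against 14108 peaks), and so was the LSD1 starved list (66332 against 16616), yet LSD1 promoter peaks were fewer in starved muscle both at these genes and over all genes. The deposited LSD1 starved list is also far longer than the study's text describes, so that it may not be the list used there, and each LSD1 starved value here refers to the list as deposited. With the lists of each target cut to equal length by q-value, GR promoter peaks lay at 30.3% (fed) and 21.2% (starved) of the genes. LSD1 peaks then lay at 50.5% and 9.09%. The cut shortened only the starved lists, so only their values fell, and for GR the direction turned. The shares of all genes at equal length are not given, so this turn is not a result about these genes in particular.

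Of the 13 genes with GR in fed muscle alone, 8 were so only by the midpoint rule. At these (Atp5g2, Atp5g3, Atp5l, Cox7a1, Cox7c, Ndufa11, Ndufa6 and Sdhaf1) a GR starved peak overlapped the fed peak but had its midpoint outside the promoter. The remaining 5 were Cox6b1, Ndufa2, Ndufa7, Ndufa9 and Ndufb5 (5.05%, against 2.63% of all genes). The same step left 22 of 26 genes with GR in starved muscle alone (22.2%, against 13.8%), 25 of 30 with LSD1 in fed muscle alone (25.3%, against 13.7%) and all 11 with LSD1 in starved muscle alone (11.1%, against 6.31%). Of the 5 genes, Cox6b1 had the highest GR fold in fed muscle (3.63, q 0.000622).

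Where a peak was listed in both conditions, its fold was mostly lower in the starved list. GR fold was higher in starved muscle at 2 of 17 genes, Ndufv1 and Sdhb, and the median ratio of starved to fed was 0.906, against 0.908 over 2303 genes. LSD1 fold was higher in starved muscle at 1 of 20 genes, Ndufb9, with a median ratio of 0.813, against 0.871 over 2278 genes. Read depth is unknown for these libraries, and its part in the folds was not tested.

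**Figure D5:**
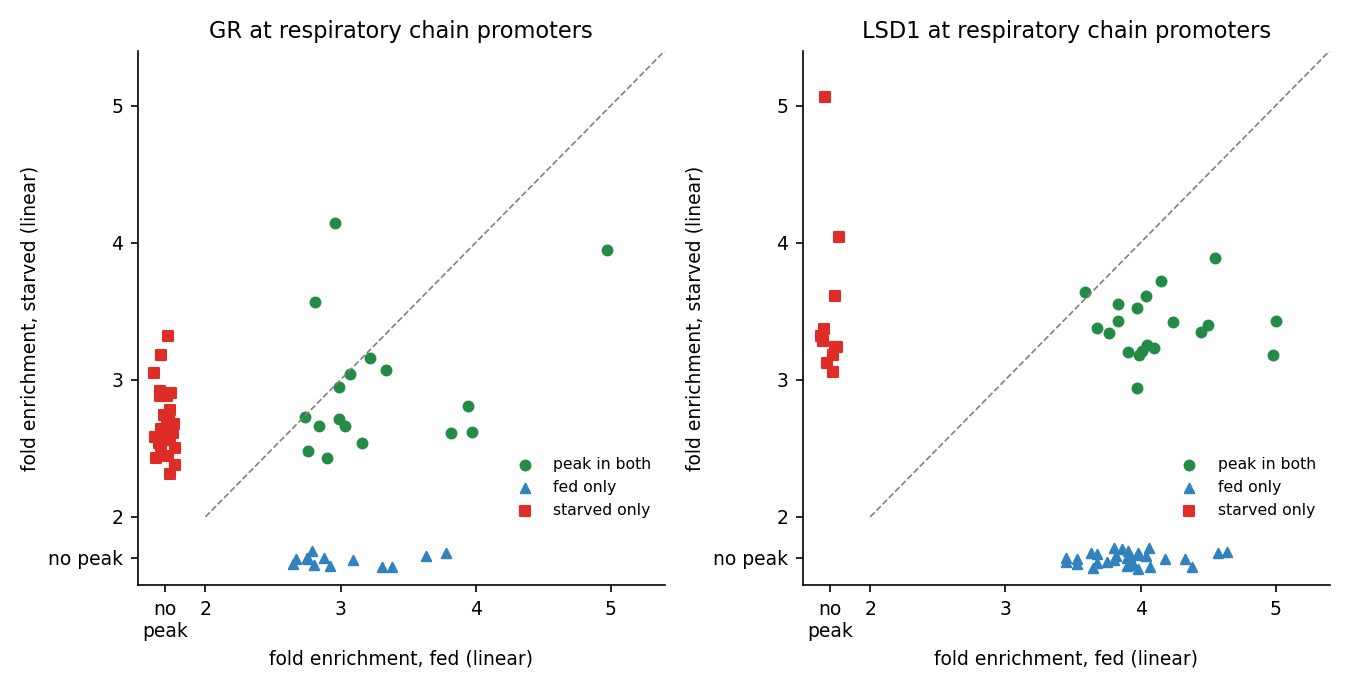
Fold enrichment of the strongest promoter peak in fed (x axis) and starved (y axis) muscle for GR (left) and LSD1 (right), with genes listed in a single condition placed on the "no peak" line (jittered) and equal folds on the dashed line. Of the genes with both peaks, 2 of 17 lie above the dashed line for GR and 1 of 20 for LSD1.

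GR and LSD1 peaks were listed together at part of these promoters. In fed muscle 20 genes had both (20.2%, against 10.6% of all genes), 10 had GR without LSD1 (10.1%, against 4.54%) and 30 had LSD1 without GR (30.3%, against 14.9%). The peaks overlapped by at least 1 bp at 18 genes in fed muscle (18.2%, against 9.51%) and at 17 in starved muscle (17.2%, against 8.80%). With q-values of 0.01 or less the overlaps fell to 3.03% (fed) and 1.01% (starved). Given a GR fed peak, 66.7% of these genes (47.2 to 82.7) and 69.9% of all genes had an LSD1 fed peak as well, so this share did not differ from that of all genes beyond its interval.

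Many of these promoters are shared with a neighbour. An opposite-strand start site lay within 1 kb at 33 of the 99 genes (33.3%), against 9.81% of all genes. Over all genes, such a neighbour went with a higher share of GR fed peaks (30.4% with and 13.4% without) and of LSD1 fed peaks (53.8% and 22.3%). Among the respiratory chain genes 10 of 33 with and 20 of 66 without such a neighbour had a GR fed peak, and 17 of 33 with and 33 of 66 without had an LSD1 fed peak. Between 20.8% and 29.0% of the promoter peaks in the 4 lists had their midpoint in the promoter of another gene as well and cannot be given to either gene. Among them are all GR and LSD1 promoter peaks of Cox4i1 (Emc8 and Gm27021), Ndufb1 (Cpsf2) and Atp5pb (Wdr77). The same holds for Atp5a1 (Haus1), Ndufa4 (Phf14) and Ndufb9 (Tatdn1).

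Some of these neighbours are themselves mitochondrial or regulatory genes. Atp5j lies 102 bp from Gabpa, the gene of the ETS factor named above, and the same GR starved peak (fold 2.48) and LSD1 starved peak (3.18) lay in both promoters. Ndufb5 shared a GR fed (2.75) and an LSD1 fed peak (3.68) with Mrpl47, a mitochondrial ribosomal protein gene 308 bp away. Ndufa7 shared a GR fed peak (2.92) with Rps28, a cytosolic ribosomal protein gene whose start site is 10 bp away. Sdhd lies 52 bp from Timm8b, an import factor of the mitochondrial intermembrane space.

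The H3K9 marks gave few promoter peaks outside the H3K9me2 fed list. H3K9me2 in fed muscle was listed at 37 promoters (37.4%, 27.9 to 47.7), against 24.4% of all genes. At a q-value of 0.01 or less it was listed at 8 (8.08%, 3.55 to 15.3), an interval that holds the 6.00% of all genes. In starved muscle it was listed at none of the 99, which allows a share of up to 3.03% (3 counts of 99; the exact interval reaches 3.66%), against 0.190% of all genes. H3K9me1 was listed at 6 promoters in fed muscle (6.06%, 2.26 to 12.7), against 2.08%, and at 2 in starved muscle (2.02%, 0.246 to 7.11), against 3.20%. Of the 50 genes with an LSD1 fed peak, 46.0% (31.8 to 60.7) also had an H3K9me2 fed peak, against 28.6% (16.6 to 43.3) of the 49 genes without. These intervals overlap. Over all genes the shares were 44.2% and 17.6%.

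The H3K9me2 fed folds were highest at Cox4i1 (4.77), Sdha (4.36) and Ndufv2 (4.23), a core iron-sulfur subunit of complex I. The Cox4i1 and Sdha peaks also lay in promoters of other genes. The 6 genes with H3K9me1 in fed muscle were Ndufa6 (5.98), Sdhc (3.96), Uqcrq (3.42), Atp5b (3.31), Atp5c1 (3.27) and Ndufb10 (3.12). In starved muscle H3K9me1 was listed at Atp5j2 (4.94) and Atp5j (3.25), the genes of subunit f and coupling factor 6. The Ndufa6 peak was 49 bp long, the shortest length in the H3K9me1 fed list.

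Within 30 kb of a start site, a GR peak was found for 64 genes in fed muscle (64.6%, against 42.2% of all genes) and for 88 in starved muscle (88.9%, against 65.2%). LSD1 peaks were found for 85 genes in fed (85.9%, against 51.5%) and 86 in starved muscle (86.9%, against 81.8%). For LSD1 in starved muscle the background lay within the interval (78.6 to 92.8), and 66.9% of olfactory receptor genes also had such a peak, against 2.98% in fed muscle. H3K9me1 was found for 39 genes in fed (39.4%, against 33.6%) and 52 in starved muscle (52.5%, against 61.6%), and H3K9me2 for 98 in fed (99.0%, against 95.1%) and 4 in starved muscle (4.04%, against 7.45%). For each of these histone lists the background lay within the interval.

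Peaks outside every promoter were counted apart. A GR fed peak within 30 kb but outside the promoters of all NM_ genes was found for 30 genes (30.3%), and for 28.5% of all genes. In starved muscle the shares were 69.7% and 56.6%. For LSD1 they were 49.5% and 31.6% in fed and 78.8% and 77.3% in starved muscle.

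A GRE consists of the arms AGAACA and TGTTCT spaced by 3 bases, and near matches with at most 2 mismatches over the 12 positions of the arms were counted around peaks.
In windows of 516 bp, such a match was found in 27.8% of those centred on GR fed peaks with a fold of at least 5, in 10.3% centred on any GR fed peak and in 2.45% centred on NM_ start sites. It was found in 1 of the 30 windows centred on the GR fed promoter peaks of the respiratory chain genes (3.33%, all genes 2.35%) and in none of the 44 in starved muscle (all genes 2.05%). In windows on GR fed peaks within 30 kb of these genes but outside all promoters it was found in 8 of 53 (15.1%, all genes 10.9%), and in starved muscle in 6 of 189 (3.17%, all genes 5.12%). With 1 match among these promoter peaks, no difference from start sites in general was detectable.

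Among strong GR peaks outside promoters were those assigned to Ndufa5 (9.09 in fed and 6.33 in starved muscle, 13.2 kb upstream) and, in fed muscle, to Cox5a (8.76, 26.3 kb downstream). These lay in introns of Asb15 and Mpi. In starved muscle a further peak lay between genes, 13.4 kb downstream of Uqcrc1 (4.83). The highest distal LSD1 folds were 6.77 at 6.34 kb downstream of Atp5h, which encodes subunit d, in fed muscle, and 5.83 at 22.5 kb downstream of Ndufs3, a core subunit, in starved muscle, both between genes. The Ndufs3 peak was nearest to C1qtnf4.

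The promoters were searched for 6 short motifs in the 300 bases around 84 matched start sites, on both strands. The NRF1 core was found in 33.3% (23.4 to 44.5), against 8.95% of 20315 promoters of all genes, the GABPA site in 26.2% (17.2 to 36.9), against 11.9%, and the YY1 site in 9.52% (4.20 to 17.9), against 1.90%. The GC box of SP1 (GGGCGG) was as frequent as over all genes (46.4% and 47.6%). The estrogen-related receptor site was found in 2 promoters (2.38%, 0.290 to 8.34), and this interval holds the 0.340% of all promoters. The GRE core (ACANNNTGT) was found in none (interval up to 4.30%, against 5.90%). The NRF1 core can match both strands at the same place and was counted once per promoter, and a match is a description of the letters, not of binding.

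The motif shares of genes with and without a peak had overlapping intervals. The NRF1 core was found in 17 of 45 promoters of genes with an LSD1 fed peak (37.8%, 23.8 to 53.5) and in 11 of 39 without (28.2%, 15.0 to 44.9), and the GABPA site in 24.4% and 28.2%. For GR fed the NRF1 core shares were 31.0% of 29 and 34.5% of 55. Over all genes, in contrast, 16.2% of promoters of genes with an LSD1 fed peak and 6.09% of those without held the NRF1 core. The median CpG ratio, observed over expected, was 0.831 over the respiratory chain promoters and 0.588 over all, while it was 0.815 over all genes with an LSD1 fed peak.

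Other genes of the pathway were counted in the same way. Of 36 assembly factors, carriers and related genes outside the symbol rule, 15 had a GR peak in fed (41.7%) and 20 in starved muscle (55.6%), and 20 had an LSD1 peak in fed (55.6%) and 8 in starved muscle (22.2%, 10.1 to 39.2). The shares of all genes were 15.1%, 26.0%, 25.4% and 18.0%, the last of which lies within the interval. Cycs, the gene of cytochrome c, had a GR fed fold of 2.73 and LSD1 folds of 4.27 and 3.31, and Cyc1 had a GR starved fold of 2.45 alone. Of 7 genes of regulators of the pathway, 1 had a GR peak in fed muscle (Esrra, 3.09) and 6 in starved muscle, namely Nrf1, Gabpa, Esrra, Ppargc1b, Tfam and Yy1, with folds between 2.48 and 3.13. The interval of the single GR fed gene (0.361 to 57.9%) holds the share of all genes, and that of the GR starved genes (42.1 to 99.6%) lies above it. LSD1 peaks lay at 5 of the 7 in each condition (29.0 to 96.3%, above the shares of all genes), the highest at Ppargc1b in fed muscle (5.90). Ppargc1a had an LSD1 peak in starved muscle (3.24) and no other GR or LSD1 promoter peak.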

How the data were processed

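Peak lists of GR, LSD1, H3K9me1 and H3K9me2 ChIP-seq from fed and starved muscle were analysed, 1 per target and condition. Per the study's methods, the authors aligned reads with Bowtie to mm10 (GRCm38), kept reads with a unique position, removed those in an ENCODE blacklist that the methods name as that of hg38, and called broad peaks per library with MACS2 against input. The deposited lists give each peak's fold enrichment (a linear ratio to the background), its −log10 p-value and −log10 q-value, and a score that was not used. Read depth is unknown from these lists, and the number of peaks in each is given in its place. The stated threshold on the false discovery rate was 0.01, whereas the deposited lists reach q-values near 0.1, so both were counted.

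Start sites came from the NM_ transcripts of RefSeq (GRCm38.p6, chromosomes 1 to 19, X and Y). Peaks were assigned by midpoint to promoters (1 kb upstream to 100 bp downstream) and to 30 kb around a start site. Shares carry exact 95% intervals. Scripts in Python 3.11.15 (scipy 1.17.1, matplotlib 3.10.9) were tested on simulated peaks. Fed and starved muscle could not be tested against each other. Genes were named by rule: those with promoter peaks in all 4 GR and LSD1 lists, the highest folds in each list, isoform pairs, complex II, core subunits and the highest distal peaks. The members, gene lists, motifs and printed promoters were chosen with earlier results of these data known. Alternatives for the q-value, fold, window, list length and overlap were recomputed. The counts cover all members, and the values of 1 member are not reported here.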

Additional observations from a re-analysis of the deposited data

How the results depend on the processing

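Of 118 other settings for the counts and folds of these genes, 67 stayed within the 95% interval (for folds, the interquartile range) of the reported value and 51 did not. Some of the 67 could not move. A cut to equal length leaves the shorter list of a target as it is, and a count of 0 cannot fall under a stricter setting. Lists are given in the order GR fed, GR starved, LSD1 fed, LSD1 starved, H3K9me1 fed, H3K9me1 starved, H3K9me2 fed and H3K9me2 starved, and values are percent of the 99 genes. At a q-value of 0.01 or less, promoter shares were 15.2, 21.2, 15.2, 4.04, 1.01 (H3K9me1 fed) and 8.08 (H3K9me2 fed), shares within 30 kb 45.5, 53.5, 40.4, 22.2, 14.1, 29.3, 71.7 and 0, overlaps of GR and LSD1 3.03 (fed) and 1.01 (starved), and GR in both conditions 6.06. At a fold of at least 5, promoter shares were 0, 0, 0, 1.01, 1.01, 0 and 0, and shares within 30 kb 10.1, 3.03, 7.07, 3.03, 1.01, 5.05, 2.02 and 0. With lists of a target cut to equal length, GR starved gave 21.2 at promoters and 55.6 within 30 kb, LSD1 starved 9.09 and 44.4, H3K9me2 fed 4.04 and 25.3, and H3K9me1 starved 23.2 within 30 kb. Counting any base of a peak gave 58.6 for GR starved, and a window of 1 kb on both sides gave 59.6, 43.4 and 8.08 for GR, LSD1 and H3K9me1 in starved muscle. Within 10 kb the shares were 49.5, 72.7, 71.7, 66.7, 17.2, 27.3, 90.9 and 1.01. These settings keep fewer peaks or change the window by construction. Of 14 settings chosen after seeing the data, 1 lay outside: GR in fed muscle alone was 5.05 where no starved peak overlapped. No paired analysis was possible because each target had 1 library per condition. The number of peaks in a list limits these counts, and the depth is unknown.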
